A study of Drosophila melanogaster with 76 samples.

Results

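The genes described here are 8 ecdysone response genes of Drosophila melanogaster, taken from a list fixed by name: EcR, usp, Eip74EF, Eip75B, br, Hr3, Hr4 and ftz-f1. All 8 were found among 13946 protein-coding genes of the Release 6 (dm6) annotation, and peaks were read over each gene body with 5 kb on either side, called the window below. Ecdysone is the insect steroid hormone whose pulses time the moults and metamorphosis. Its receptor pairs EcR with Usp, the fly's retinoid X receptor. The bound receptor switches on early genes that encode transcription factors (Eip74EF, Eip75B, br), and these, with Hr3 and Hr4, pass the signal on to later genes such as ftz-f1. Several of these genes are long, have several promoters and are also used in the embryo, where maternal Usp and Ftz-F1 proteins are known to be present.

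The data were ChIP-seq peak lists from embryos labelled 1–1.5 h and 2.5–3 h and from larvae labelled 48AEL, a label without a unit. Mutant and WT embryos, both of an experiment named IntS11 mislocalized, were each mapped for Zelda, GAF, RNA polymerase II (Pol II) and pSer5. WT embryos were mapped for IntS11 as well, and ZygoticMutant and WT larvae for Pol II, all under labels without that experiment name. The labels do not give the allele, the driver or any other genotype detail, and the series design speaks of several mutant lines. IntS11 is the endonuclease of the Integrator complex, which cuts nascent transcripts. Zelda and GAF are DNA-binding factors that open chromatin as the zygotic genome becomes active, and pSer5 is Pol II phosphorylated on serine 5 of its tail, a mark of initiating polymerase. Each of the 20 groups had 2 lists, and the study's other 36 of 76 samples were not analysed here. The labels do not say whether the 2 lists of a group come from separate embryo collections, so p-values measure only the spread between these lists.

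The 40 lists held 1276 to 12202 peaks, given as positions without heights, so depth was unknown and lower coverage cannot be told apart from a shallower library. Mutant embryo lists covered 1.66 to 9.08 Mb and WT embryo lists 0.908 to 19.3 Mb, the lowest for IntS11. Zelda lists covered 1.66 to 3.38 Mb in mutant embryos and 10.9 to 13.3 Mb in WT. Pol II lists of 2.5–3 h covered 3.12 and 3.98 Mb in mutant embryos, against 11.4 and 10.2 Mb in WT. At 1–1.5 h Pol II lists overlapped, with 8.41 and 7.27 Mb in mutant embryos and 7.38 and 6.69 Mb in WT. For each other antibody and stage mapped in both genotypes, both mutant lists covered less than both WT lists. Most mutant Pol II and pSer5 regions lay where WT embryos of the same stage had no peak of that antibody. This held for 86.3% of mutant Pol II regions at 1–1.5 h, 95.2% at 2.5–3 h, and 88.9% and 56.4% of mutant pSer5 regions at those stages. Of 15 early zygotic marker genes, 11 had Pol II peaks in both mutant lists at 1–1.5 h and 15 in both WT lists. The corresponding counts at 2.5–3 h were 2 in mutant and 14 in WT embryos. For pSer5 at 2.5–3 h, however, they were 14 in mutant and 14 in WT embryos. The mutant Pol II lists of 2.5–3 h thus stand apart from the other embryo Pol II lists, and the Pol II and pSer5 results were also computed without that comparison, which changed no call at the 8 genes. Of 15 larval marker genes, 5 had Pol II peaks in both ZygoticMutant larval lists and 4 in both WT larval lists. In WT embryos of 2.5–3 h it was 3, so the larval markers hardly separated larvae from embryos. The early zygotic markers did separate larvae from WT embryos. Of those 15 genes, 5 had Pol II peaks in both ZygoticMutant larval lists and 4 in both WT larval lists. The IntS11 gene itself carried Pol II peaks in both lists of every group, which checks nothing about the mutation.

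In mutant embryos, window coverage by Zelda and GAF peaks was lower at EcR, Eip75B and Hr4. Window coverage by Pol II and pSer5 peaks was lower at EcR, usp, Eip74EF, Hr4 and ftz-f1, mostly in the 5 kb flanks at the last 3. At br, Pol II and pSer5 coverage was higher in the mutant. Coverage is the percent of the window under peaks, and the test was a two-sided exact permutation of genotype within antibody and stage over 16 lists, adjusted over all genes tested. Zelda and GAF coverage was called lower at 3 of the 8 genes and higher at 0, against 73.3% lower and 1.56% higher of the 11007 genes tested. At an unadjusted p under 0.05 the counts at the 8 genes were again 3 lower and 0 higher. Pol II and pSer5 coverage was called lower at 5 of 8 and higher at 1, against 79.4% lower and 4.01% higher of 11417 genes. Most of the WT coverage of Eip74EF, Hr4 and ftz-f1 lay in the flanks (97.6%, 82.1% and 96.9%). Over gene bodies alone the differences at these genes did not pass. The median difference, mutant minus WT, was -5.04 percentage points over the 8 genes for Zelda and GAF, and -6.98 over all genes tested. For Pol II and pSer5 it was -5.06 points against -16.5. A long window lowers the percent that one peak can cover, and 7 of the 8 bodies measured 33.4 to 113.7 kb, against a median of 2.16 kb for all genes.

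**Figure D1:**
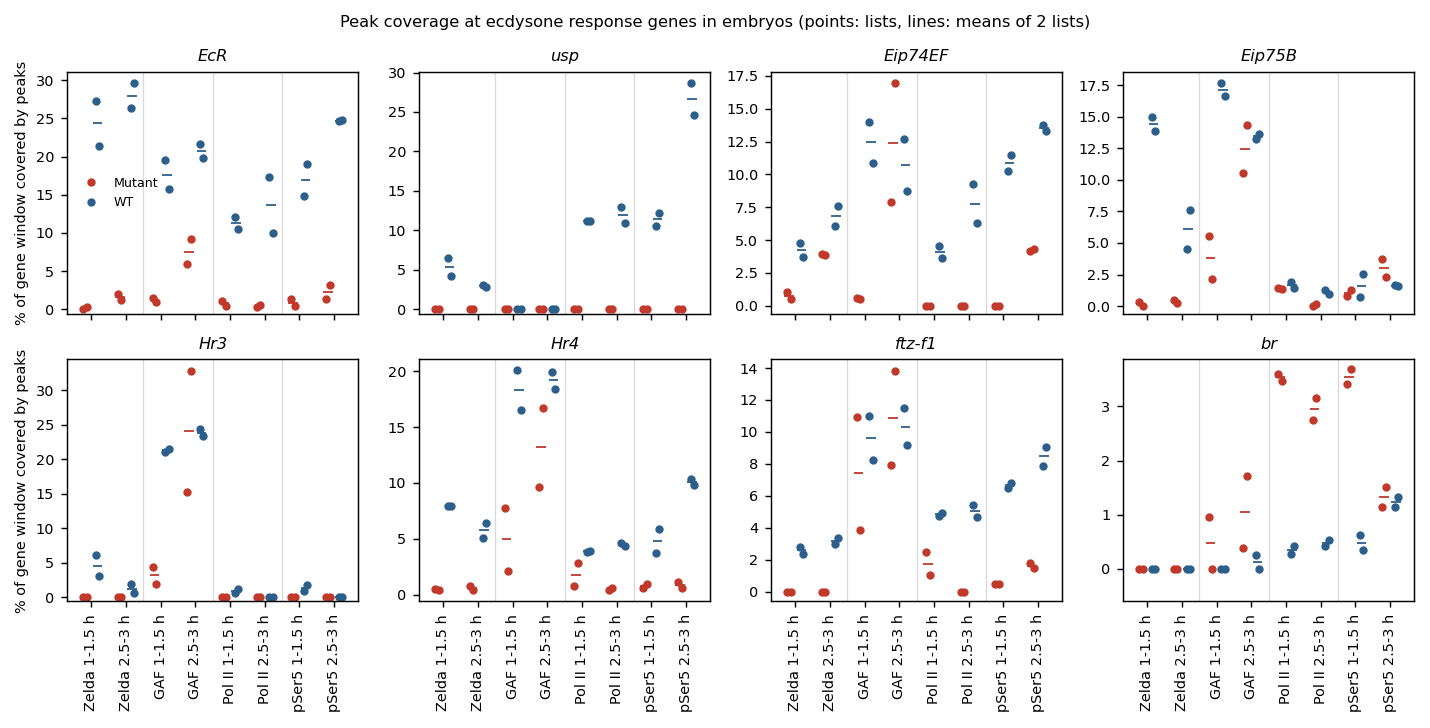
Percent of each gene window covered by peaks (y axis, scale set per gene) in every embryo list, for Zelda, GAF, Pol II and pSer5 at 1–1.5 h and 2.5–3 h (x axis); red points are mutant lists, blue points WT lists, lines the means of 2 lists. Mutant points lie below WT points at EcR in every comparison, while at br the Pol II points of the mutant lie above those of WT, and the GAF points of the mutant at 2.5–3 h reach those of WT at Eip75B, Hr3 and Eip74EF.

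Taken one antibody and stage at a time, the lists of the genotypes did not overlap at many of the 8 genes, as at most genes of the genome. Zelda coverage was lower in both mutant lists at 7 genes at 1–1.5 h (96.3% of all genes with peaks) and at 7 at 2.5–3 h (95.7%), and higher at 0 (2.64% and 1.9% of all genes). GAF coverage was lower at 5 genes and higher at 0 at 1–1.5 h (87.6% and 8.27%), but lower at only 2, EcR and Hr4, at 2.5–3 h, where 88.1% of all genes were lower. GAF coverage was higher at br at 2.5–3 h (2.72%). Pol II coverage was lower at 7 genes at 1–1.5 h (88.1%) and at 6 at 2.5–3 h (93.4%), and higher at br at both stages (9.1% and 4.28%). Coverage by pSer5 was lower at 6 genes at 1–1.5 h (85%) and at 5 at 2.5–3 h (92.2%). It was higher at br at 1–1.5 h (9.55%) and at Eip75B at 2.5–3 h (5.31%). An exact permutation test of 2 lists against 2 cannot reach the threshold of 0.05, so these are descriptions.

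EcR encodes the ecdysone receptor and lies on chromosome 2R from 6087873 to 6169087. Its 91.2 kb window had the highest Zelda coverage of the 8 in WT embryos at both stages. Zelda peaks covered 0 and 0.334% of it in the mutant lists of 1–1.5 h, against 27.3% and 21.4% in WT. At 2.5–3 h Zelda covered 2.01% and 1.16% in mutant embryos, against 26.4% and 29.6% in WT embryos. Every mutant list was far below every WT list at both stages. GAF covered 1.40% and 0.903% in mutant embryos of 1–1.5 h, against 19.5% and 15.8% in WT, and 5.87% and 9.20% in mutant embryos of 2.5–3 h, against 21.7% and 19.8% in WT. Averaged over both factors and stages, coverage was 2.61% in mutant and 22.7% in WT lists, a difference of -20.07 points (two-sided exact permutation test, adjusted p = 0.00331).

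Pol II at EcR covered 1.09% and 0.425% in mutant lists of 1–1.5 h, against 12.1% and 10.6% in WT lists. At 2.5–3 h it covered 0.239% and 0.543% in mutant embryos, against 17.3% and 9.99% in WT embryos. For pSer5 the values were 1.29% and 0.360% in mutant embryos of 1–1.5 h, against 14.8% and 19.0% in WT. The pSer5 values at 2.5–3 h were 1.28% and 3.23% in mutant embryos, against 24.6% and 24.8% in WT. The genotypes overlapped in none of the 4 comparisons, and the mean difference was -15.6 points (two-sided exact permutation test, adjusted p = 0.00226). Over the gene body alone it was -13.8 points (adjusted exact p = 0.00295 by the same test), so the loss did not sit only beside the neighbouring gene Ars2, whose end carries the WT peak about 2 kb outside EcR. The WT Pol II peak of the body that was among the longest, 42.4 to 45.7 kb from the lower-coordinate end in 1 list at 2.5–3 h, had no Pol II counterpart in mutant lists. Mutant Pol II of 1–1.5 h instead had a peak of 388 to 456 bp 12.8 to 13.3 kb inside the gene, where mutant GAF and pSer5 lists of that stage also had peaks in both lists and no WT embryo list of the 4 antibodies had one.

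usp, which encodes the partner of EcR, is the shortest of the 8 genes, 3514 bp on chromosome X from 2038798 to 2042311. No list of mutant embryos had a peak in its window, for any of the 4 antibodies at either stage. Pol II covered 11.1% and 11.2% of the window in WT embryos of 1–1.5 h and 13.0% and 11% at 2.5–3 h. For pSer5 the WT values were 10.6% and 12.2% at 1–1.5 h and 28.6% and 24.6% at 2.5–3 h. The mean over these lists was 0 in the mutant and 15.3% in WT, a difference of -15.3 points (two-sided exact permutation test, adjusted p = 0.00226). WT Pol II formed 1 peak of 1483 to 1756 bp over the higher-coordinate end of usp, within 500 bp of ends of Actn, CG4313 and CG4325. Peaks alone therefore do not assign this signal to usp. Zelda had 1 WT peak there (6.53% and 4.23% at 1–1.5 h, 3.08% and 2.83% at 2.5–3 h), and GAF had none in either genotype. Over Zelda and GAF together the difference of -2.08 points did not pass (adjusted exact p = 0.0680, same test). GAF gave no information at usp, which leaves 2 strata, for which the smallest p the test can give is 0.0556.

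Among the early genes, Eip74EF encodes an ETS-domain transcription factor and lies on 3L from 17558672 to 17619325. Pol II covered 0 in all 4 mutant lists. In WT lists it covered 4.54% and 3.64% at 1–1.5 h and 9.26% and 6.29% at 2.5–3 h. For pSer5, the mutant lists were at 0 and 0 at 1–1.5 h and at 4.17% and 4.29% at 2.5–3 h, against 10.3% and 11.5%, and 13.8% and 13.3%, in WT lists of those stages. The mean difference was -8.02 points (two-sided exact permutation test, adjusted p = 0.00226). Nearly all of this coverage, 90.6% of the covered length in the mutant and 97.6% in WT, lay outside the gene body, with peaks at the ends of CycT on one side and of Vps60 and anchor on the other and further peaks in the flanks away from any gene end. Over the body alone the difference was -0.14 points and did not pass (adjusted exact p = 0.288). The body of Eip74EF thus had almost no Pol II peak in embryos of either genotype. In mutant embryos of 2.5–3 h, 1 Zelda peak of 2724 to 2729 bp covered the CycT side in both lists, a place where a WT Zelda region was kept.

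Eip75B, the largest gene at 113.7 kb (3L, 17950953 to 18064696), encodes the nuclear receptor E75, a haem-binding repressor that acts on Hr3. Zelda covered 0.305% and 0 of its window in mutant embryos of 1–1.5 h, against 15% and 13.9% in WT embryos, and 0.450% and 0.281% at 2.5–3 h, against 4.52% and 7.63% in WT. GAF covered 5.57% and 2.12% in mutant embryos of 1–1.5 h, against 17.7% and 16.6% in WT. At 2.5–3 h GAF covered 10.5% and 14.3% in mutant lists, against 13.2% and 13.6% in WT lists, so the genotypes overlapped. Over both factors the difference was -8.57 points (two-sided exact permutation test, adjusted p = 0.00792). With only the longest peaks of each list, up to the number in the shortest list of the antibody and stage, it was -4.69 points (adjusted exact p = 0.0791).

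Pol II at Eip75B was sparse in both genotypes. It covered 1.42% and 1.35% in mutant embryos of 1–1.5 h, against 1.92% and 1.44% in WT, and 0 and 0.193% in mutant embryos of 2.5–3 h, against 1.27% and 0.969% in WT. For pSer5 the mutant lists were at 0.795% and 1.25% at 1–1.5 h and at 3.70% and 2.34% at 2.5–3 h, against 0.731% and 2.51%, and 1.64% and 1.56%, in WT lists. The mutant was below WT for Pol II and above it for pSer5 at 2.5–3 h, and the mean difference was -0.12 points (two-sided exact permutation test, adjusted p = 0.753). Both WT Pol II regions of 1–1.5 h, near 48 and 97 kb from the lower-coordinate end, were kept in the mutant. These were 2 of the 2 Pol II regions kept among the 22 of that stage in the 8 windows. None of the gene's Pol II or pSer5 coverage in embryos lay in its flanks.

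**Figure D2:**
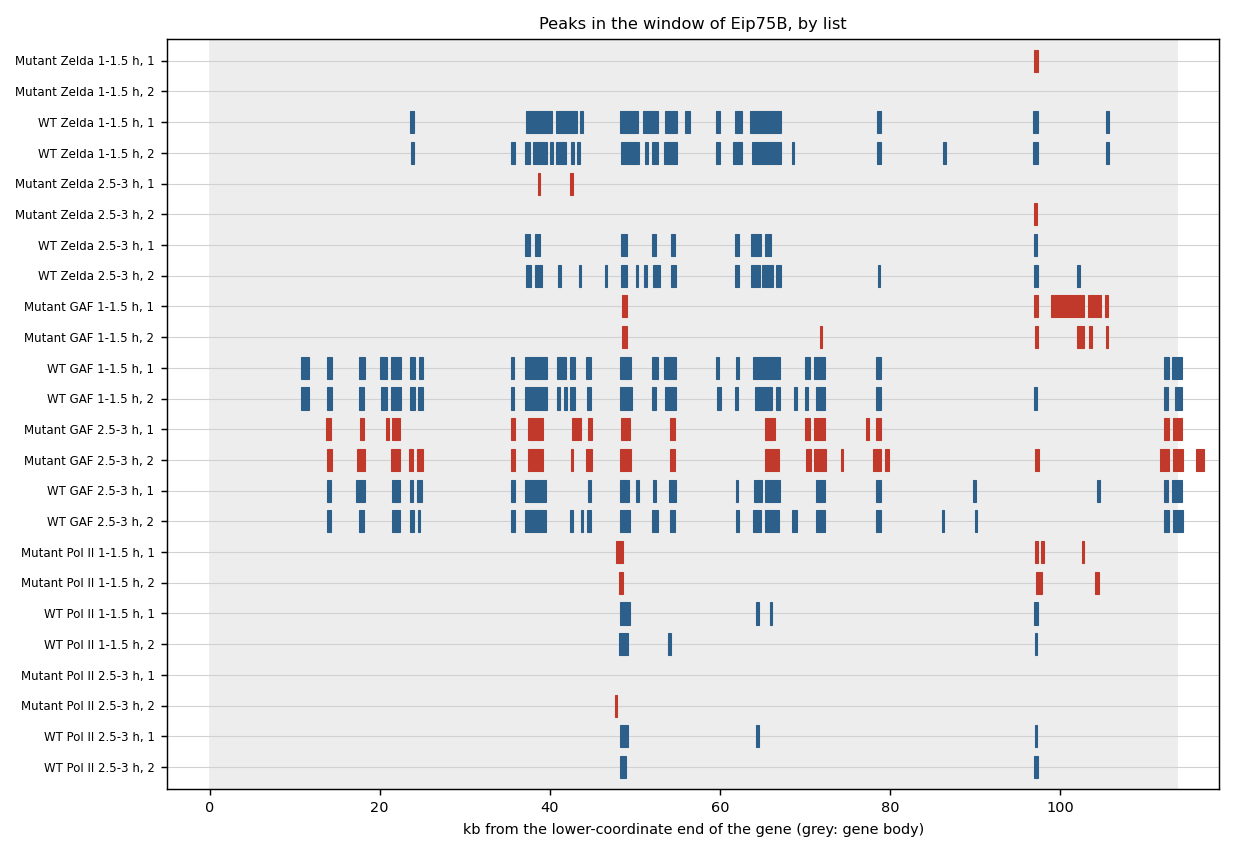
Peaks of Zelda, GAF and Pol II in the Eip75B window, 1 row per list, with red bars for mutant and blue bars for WT lists; the x axis is the distance in kb from the lower-coordinate end of the gene, whose body is shaded. Zelda rows are nearly empty in the mutant at both stages, GAF rows of the mutant are sparse at 1–1.5 h and resemble WT rows at 2.5–3 h, and Pol II has few peaks in either genotype.

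br, the Broad-Complex, encodes BTB zinc-finger factors that specify the pupal stage. It lies on X from 1575132 to 1664869, and Mur2B is annotated across it. None of the 8 Zelda lists had a peak in its window, and no IntS11 list had one. Pol II covered 3.59% and 3.47% in mutant lists of 1–1.5 h, against 0.281% and 0.430% in WT, and 2.75% and 3.15% in mutant lists of 2.5–3 h, against 0.415% and 0.537% in WT. For pSer5 the mutant lists were at 3.41% and 3.68% at 1–1.5 h, against 0.618% and 0.345% in WT, and at 1.14% and 1.51% at 2.5–3 h, against 1.15% and 1.32%. Mutant lists were above WT lists in 3 of these 4 comparisons and overlapped them in the fourth. The mean was 2.84% in the mutant and 0.637% in WT, a difference of +2.2 points (two-sided exact permutation test, adjusted p = 0.00625). Without the 2.5–3 h Pol II comparison it was +2.11 points (adjusted exact p = 0.0358).

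In embryos the 2 genotypes had their br peaks in different places. All Pol II and pSer5 coverage of the window in WT embryos lay in its flank, at the ends of CG3740, hfw and dor. Coverage in mutant embryos lay inside the body, at 4 positions between 53.2 and 58.9 kb (X, 1628356 to 1633997), apart from a 259 bp Pol II peak at 11.3 kb in 1 list of 2.5–3 h. Both mutant lists had peaks at all 4 positions for Pol II at 1–1.5 h, for Pol II at 2.5–3 h and for pSer5 at 1–1.5 h, and at 2 of the 4 for pSer5 at 2.5–3 h. No WT embryo list of any of the 4 antibodies had a peak at any of them. Of the GAF lists, 1 mutant list of 1–1.5 h had peaks at 54.4 and 56.3 kb. Over the body alone the Pol II and pSer5 difference was +3.16 points (two-sided exact permutation test, adjusted p = 0.00295). GAF coverage was otherwise low, 0.959% and 0 in mutant embryos of 1–1.5 h against 0 and 0 in WT, and 0.381% and 1.71% in mutant embryos of 2.5–3 h against 0.262% and 0 in WT. Zelda and GAF together did not pass (+0.35 points, adjusted exact p = 0.187, same test).

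**Figure D3:**
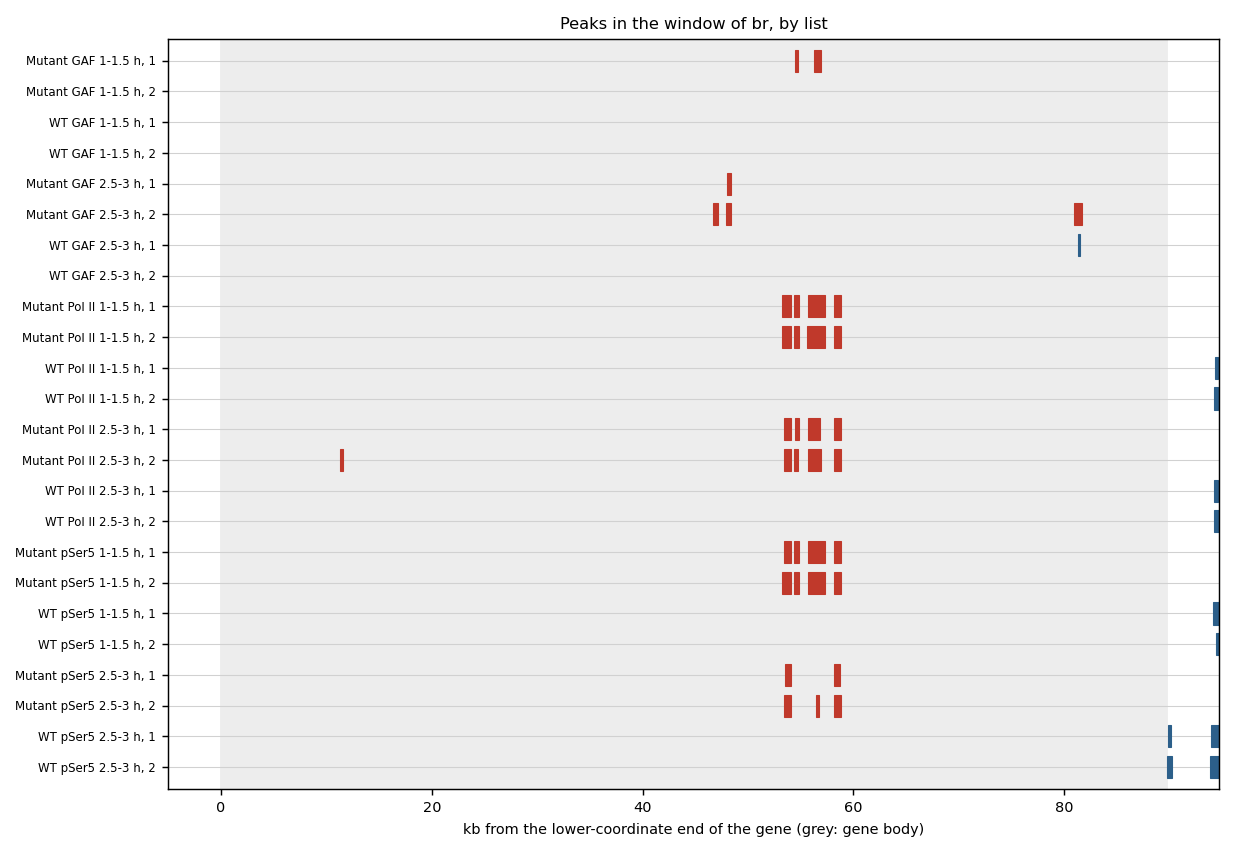
Peaks of GAF, Pol II and pSer5 in the br window, 1 row per list, with red bars for mutant and blue bars for WT lists; the x axis is the distance in kb from the lower-coordinate end of br, whose body is shaded. Mutant Pol II and pSer5 peaks stack between 53.2 and 58.9 kb in the body, and Pol II and pSer5 peaks of WT embryos stand at the right edge, outside the body.

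Of the later genes, Hr3 encodes a nuclear receptor that induces ftz-f1 and lies on 2R from 10203995 to 10237348. No Zelda, Pol II or pSer5 list of mutant embryos had a peak in its window. WT Pol II had 1 peak of 287 or 540 bp at 1–1.5 h, near 7.4 kb from the lower-coordinate end, and none at 2.5–3 h. WT pSer5 covered 0.886% and 1.72% at 1–1.5 h and 0 at 2.5–3 h. Pol II and pSer5 together gave 0 in the mutant and 0.565% in WT (adjusted p = 0.0650, two-sided exact permutation test), with peaks at 1 stage only. GAF was the main occupant of this gene: it covered 4.36% and 1.94% in mutant embryos of 1–1.5 h, against 21% and 21.5% in WT embryos. At 2.5–3 h GAF covered 15.3% and 32.8% in mutant lists, against 24.3% and 23.3% in WT lists. The later mutant lists lay on either side of WT. Zelda and GAF together differed by -5.93 points (adjusted exact p = 0.111). Without mutant GAF replicate 2 of 2.5–3 h this became -8.12 points (adjusted exact p = 0.00346). The same list decided the Zelda and GAF call of Eip74EF, -4.14 points with it (adjusted exact p = 0.0773) and -5.27 without it (adjusted exact p = 0.00627).

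Hr4, a nuclear receptor gene induced between the early and the late genes (X, 1941940 to 2007956), had lower coverage in both mutant lists than in both WT lists for all 4 antibodies at both stages. Zelda covered 0.509% and 0.368% in mutant embryos of 1–1.5 h, against 7.98% and 7.92% in WT, and 0.760% and 0.431% at 2.5–3 h, against 5.07% and 6.43% in WT. GAF covered 7.77% and 2.13% in mutant embryos of 1–1.5 h, against 20.1% and 16.6% in WT, and 9.65% and 16.8% at 2.5–3 h, against 20.0% and 18.4% in WT. No list of one genotype reached the other in these comparisons. Zelda and GAF together differed by -8.01 points (two-sided exact permutation test, adjusted p = 0.00331), and by -5.75 points over the body alone (adjusted p = 0.00544). Pol II and pSer5 together averaged 0.986% in the mutant and 5.81% in WT, a difference of -4.83 points (adjusted exact p = 0.00226, same test). Most of this coverage, 65.7% in the mutant and 82.1% in WT, lay outside the body. In WT it lay mainly at the ends of PIG-K and east and, away from gene ends, in peaks near 70 to 72 kb. Some WT lists also had smaller peaks in the other flank. Over the body alone the difference of -0.81 points did not pass (adjusted exact p = 0.182), nor did the -1.16 points with 1 kb flanks (adjusted exact p = 0.142).

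Both of the following places, which lie in or reach into the Hr4 window, had peaks of more than 1 antibody in the mutant. The first, 6.9 to 4.0 kb outside the gene beside CG3857, reaches past the 5 kb flank. It held regions of Zelda, Pol II and pSer5 at both stages. Within the flank, Pol II of 1–1.5 h had a peak in only 1 of the mutant lists. No WT embryo list of these antibodies or GAF had a peak at this place, while 1 WT IntS11 list of 2.5–3 h did. The second, 17.7 to 18.3 kb inside the gene, held GAF at both stages and Pol II at 1–1.5 h, and 3 WT lists also had a peak there.

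ftz-f1 encodes a nuclear receptor that gives prepupal tissues the competence to respond to the next pulse and, from maternal product, acts with Ftz in the embryo. It lies on 3L from 18750607 to 18801309. Zelda had no peak in any mutant list, against 2.78% and 2.39% in WT embryos of 1–1.5 h and 2.96% and 3.38% at 2.5–3 h. GAF overlapped between the genotypes at both stages, with 11% and 3.87% in mutant embryos of 1–1.5 h against 11% and 8.22% in WT, and 7.90% and 13.8% in mutant embryos of 2.5–3 h against 11.5% and 9.16% in WT. Together they differed by -1.85 points (two-sided exact permutation test, adjusted p = 0.134). This passed without mutant GAF replicate 1 of 1–1.5 h, at -2.74 points (adjusted exact p = 0.0468), and without mutant GAF replicate 2 of 2.5–3 h, at -2.59 points (adjusted exact p = 0.0313).

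Pol II at ftz-f1 covered 2.47% and 1.05% in mutant embryos of 1–1.5 h, against 4.75% and 4.93% in WT, and 0 in both mutant lists of 2.5–3 h, against 5.43% and 4.70% in WT. With pSer5 the difference was -5.29 points (two-sided exact permutation test, adjusted p = 0.00226). In WT, 96.9% of this coverage lay outside the gene, most of it in peaks that reach the ends of CG6885, MED11, Nufip and Atg3. Over the body alone the difference was +0.22 points (adjusted exact p = 0.577), and with 1 kb flanks it was -0.35 points (adjusted exact p = 0.445). The only Pol II peaks inside the gene in embryos were in the mutant at 1–1.5 h, between 22.0 and 29.2 kb. None of these Pol II peaks overlapped between the mutant lists. In the same stretch mutant GAF of that stage had peaks of up to 2584 bp.

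**Figure D4:**
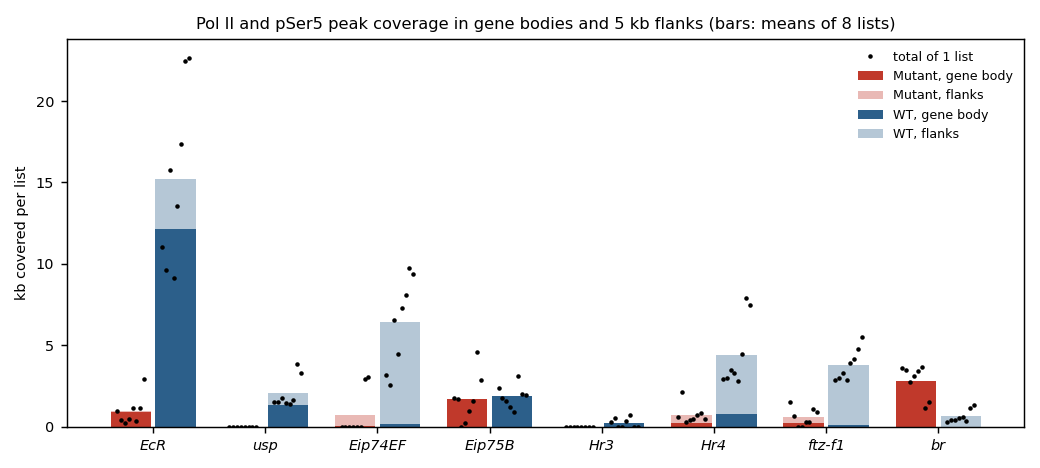
Length covered by Pol II and pSer5 peaks per list (y axis, kb), with bars for the means over 8 mutant lists (red) and 8 WT lists (blue) and dots for the total of each list; dark parts of a bar lie in the gene body and pale parts in the 5 kb flanks. WT coverage lies mostly in the body at EcR and usp, mostly in the flanks at Eip74EF, Hr4 and ftz-f1, and at br the mutant alone has coverage in the body.

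Counted as regions, that is, merged peaks present in both lists of a group, most Zelda regions of the 8 windows were without a peak in the mutant. At 1–1.5 h, 43 of 45 WT Zelda regions had no peak in either mutant list and 1 was kept in both (91.4% and 5.12% of all regions genome-wide). At 2.5–3 h 33 of 40 were lost and 4 kept (78.1% and 13.5%). Of the 80 WT GAF regions of 1–1.5 h, 70 were lost and 6 kept in both mutant lists (82.7% and 11.5% genome-wide). Of the 76 WT GAF regions of 2.5–3 h, 26 were lost and 40 kept (55.6% and 34%). At EcR 11 of the 16 late GAF regions were lost and 3 kept. At Eip75B 13 of 19 were kept, at Hr3 8 of 10 with 0 lost, at Hr4 8 of 14, at ftz-f1 5 of 8 and at Eip74EF 3 of 9. For Pol II at 1–1.5 h 19 of 22 WT regions were lost, and at 2.5–3 h all 20 (82.2% and 97.8% genome-wide). The other Pol II regions of 1–1.5 h were 2 kept (12.5% genome-wide) and 1 found in a single mutant list. For pSer5 15 of 18 were lost and 1 kept at 1–1.5 h (83.1% and 9.1%), and 19 of 28 were lost and 5 kept at 2.5–3 h (70.7% and 20.7%).

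Of the mutant's own regions in the 8 windows, 1 of 2 for Zelda, 6 of 15 for GAF, 7 of 9 for Pol II and 7 of 9 for pSer5 at 1–1.5 h had no WT peak of that antibody and stage (69.2%, 73.6%, 86.3% and 88.9% genome-wide). The counts at 2.5–3 h were 1 of 3, 5 of 46, 5 of 5 and 7 of 12 in the same order (36.4%, 20.2%, 95.2% and 56.4%). Merged across antibodies and stages, mutant embryos held 22 places in the 8 windows with a region in both lists of at least 1 antibody and stage and no peak in the WT lists of the same antibody and stage. Peaks of 2 or more antibodies shared 10 of them (45.5%, against 52.8% of the 9331 such places genome-wide). No WT embryo list of the 4 antibodies had a peak in 11 of the 22. Those shared by 2 or more antibodies at br, EcR, Hr4 and ftz-f1 are given above, and the other places were GAF or pSer5 regions inside Eip75B, Eip74EF, EcR and br. At the ftz-f1 place the Pol II peaks of the 2 mutant lists did not overlap each other.

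The 2 stages were compared within each genotype. In mutant embryos GAF coverage was higher at 2.5–3 h than at 1–1.5 h at EcR, Eip74EF, Eip75B, Hr3 and Hr4, without list overlap. That is 5 of the 7 genes with a peak in at least 2 of these lists, against 72% of all such genes. Over the whole genome the mutant GAF lists covered 3.27 and 5.41 Mb at 2.5–3 h, against 5.12 and 2.78 Mb at 1–1.5 h, so the stages overlapped. At Eip74EF it was 7.90% and 17.0% at 2.5–3 h, against 0.609% and 0.531% at 1–1.5 h. In WT embryos GAF was higher at 2.5–3 h at EcR and Hr3 (42% of all genes) and lower at Eip75B (16.1%). WT Zelda was lower at 2.5–3 h at usp, Eip75B, Hr3 and Hr4 (30.1%) and higher at Eip74EF and ftz-f1 (23.9%). In mutant embryos Zelda was higher at 2.5–3 h at EcR and Eip74EF (68.1%), and Pol II was lower at Eip75B, Hr4, ftz-f1 and br (79.7%) and higher at none of the 8 (8.87%). WT Pol II was higher at 2.5–3 h only at Eip74EF and Hr4 (72.5%) and lower at Eip75B and Hr3 (4.96%). At 2.5–3 h, 100% of the WT Pol II coverage at Eip74EF and 95.6% at Hr4 lay in the flanks. Mean WT Pol II coverage of the body went from 0.257% to 0 at Eip74EF and from 0.598% to 0.228% at Hr4. WT pSer5 was higher at 2.5–3 h at 6 genes (82.7%), and lower at Hr3 (3.56%). Mutant pSer5 was higher at 2.5–3 h at Eip74EF, Eip75B and ftz-f1 (54.7%) and lower at br (21.6%).

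In WT embryos most GAF regions at these genes were without a Pol II peak. Of the GAF regions in the 8 windows, 16 of 80 shared a Pol II peak at 1–1.5 h (20% against 60.9% of all GAF regions), and 15 of 76 did at 2.5–3 h (19.7% against 59.1%). Of the Zelda regions, 19 of 45 shared Pol II at 1–1.5 h (42.2% against 51.2%) and 17 of 40 at 2.5–3 h (42.5% against 62.0%). A GAF peak was shared by 34 of the 45 Zelda regions at 1–1.5 h (75.6% against 41.2% of all Zelda regions) and by 29 of the 40 at 2.5–3 h (72.5% against 52.1%). Most of the GAF regions, 71 of 80 and 62 of 76, lay in the gene bodies. These shares, and those of IntS11 below, were not compared with shares at other long genes, so a tie to gene length was not tested.

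IntS11 was nearly absent from the windows of these genes in WT embryos of 1–1.5 h and present in most windows by 2.5–3 h. It covered 11.7% and 12.4% of the EcR window at 2.5–3 h, against 0 in both lists of 1–1.5 h. At usp it covered 2.23% and 5.65% at 2.5–3 h, against 0, but the 2 lists had their peaks at different places. At ftz-f1 it covered 1.97% and 2.36%, against 0. There 86.9% of the covered length lay in the flank, in peaks near the ends of CG6885, MED11, Nufip and Atg3. At Eip74EF, mainly beside CycT, Vps60 and anchor, it covered 6.33% and 7.36% at 2.5–3 h, against 1.02% and 1.57% at 1–1.5 h. Of the 8 genes, 6 had an IntS11 peak in at least 2 of these lists. Coverage was higher at 2.5–3 h without overlap at all 6 and lower at 0. Of all genes with that many peaked lists, 98% were higher and 0.488% lower. Of the 5 genes without an IntS11 peak at 1–1.5 h, 3 (EcR, usp, ftz-f1) had a peak in both lists at 2.5–3 h, against 48.6% of the genes without an early peak. The exceptions were br, with no IntS11 peak, and Hr3, with 1 peak in 1 list at 2.5–3 h. Of the 19 late IntS11 regions in the 8 windows, all 19 shared a Zelda peak and 18 a GAF peak (85.0% and 69.6% of all IntS11 regions), while 14 shared Pol II and 15 pSer5 (86.4% and 92.2%).

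In larvae, ftz-f1 was the only one of the 8 genes at which the ZygoticMutant and WT Pol II lists did not overlap, and its coverage was lower in the mutant (14% of all genes were lower and 19.3% higher). It was 2.05% and 2.47% in ZygoticMutant larvae and 8.18% and 7.23% in WT larvae, a mean of 2.26% ± 0.299 against 7.71% ± 0.672 (SD, n = 2 each). In WT larvae, 3 Pol II regions inside the gene, starting at 14.7, 22.0 and 23.4 kb, had no peak in either ZygoticMutant list, while the region in the Nufip and Atg3 flank was kept. Over the 8 windows 5 of 19 WT larval regions were lost and 11 kept (10% and 77.4% genome-wide). EcR lost 1, at 53.4 to 54.9 kb, and had 2.62% and 5.20% in ZygoticMutant larvae against 7.71% and 3.84% in WT larvae, with overlap. Eip75B had 3.37% and 3.85% in ZygoticMutant larvae against 5.90% and 3.53%, Hr3 2.83% and 3.25% against 3.64% and 2.27%, and Hr4 2.09% and 4.21% against 3.73% and 1.04%. Values of usp, Eip74EF and br also overlapped.

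**Figure D5:**
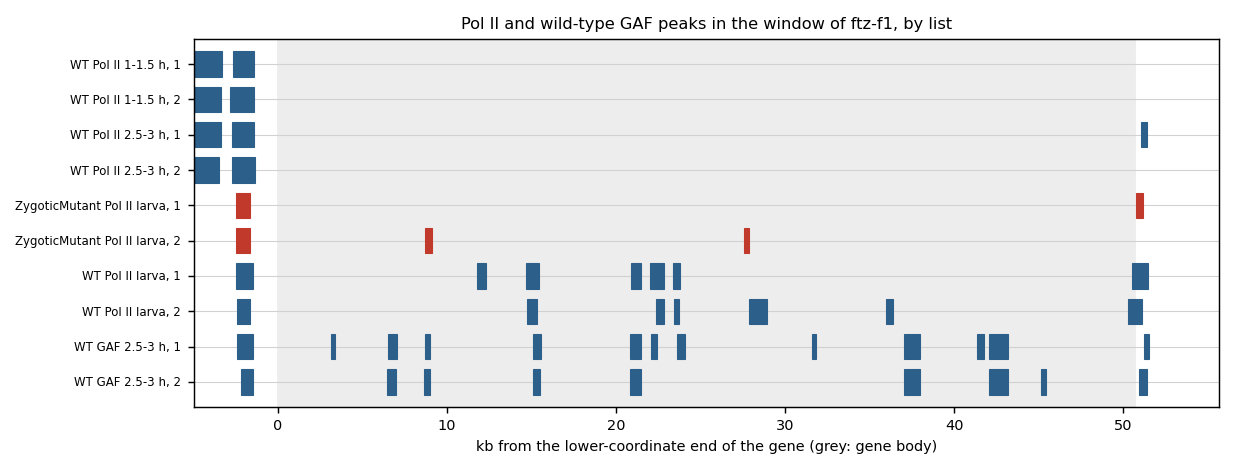
Pol II peaks in the ftz-f1 window in WT embryos of 2 stages and in ZygoticMutant (red) and WT larvae, with WT GAF peaks of 2.5–3 h embryos below, 1 row per list; the x axis is the distance in kb from the lower-coordinate end of the gene, whose body is shaded. WT larvae have Pol II peaks between 11.8 and 36.4 kb in the body, where WT embryos have none and ZygoticMutant larvae have 1 in 1 list.

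Across the WT stages, Pol II rose in coverage at some of these windows and fell at others, with peaks at partly different places. At ftz-f1 it covered 4.84% ± 0.127 at 1–1.5 h, 5.07% ± 0.517 at 2.5–3 h and 7.71% ± 0.672 in larvae (SD, n = 2 each). At Hr3 the means were 0.954% ± 0.413, 0 and 2.95% ± 0.975, and at Eip75B 1.68% ± 0.339, 1.12% ± 0.211 and 4.71% ± 1.67. At EcR they were 11.3% ± 1.07, 13.6% ± 5.17 and 5.78% ± 2.73, and at usp 11.1% ± 0.0314, 12% ± 1.43 and 2.02% ± 2.86. The only usp peak of WT larvae, in 1 list, lay 2.1 to 2.7 kb outside the lower-coordinate end, away from the embryo peak. At ftz-f1 100% of the WT embryo coverage lay in the flanks at both stages, against 31.5% in WT larvae. Whole WT larval lists covered 5.80 and 3.84 Mb, against 11.4 and 10.2 Mb in WT embryos of 2.5–3 h. Larval lists were above those of 2.5–3 h embryos without overlap at Eip75B, Hr3 and ftz-f1 (14.4% of all genes) and below them at EcR, usp, Eip74EF, Hr4 and br (72.8%). Of 19 WT larval Pol II regions in the windows, 9 lay where late WT embryos had Pol II (47.4%, against 65.3% genome-wide), and 12 where they had GAF (63.2%, against 52.2%). A place without any Zelda, GAF, Pol II or pSer5 peak in WT embryos of 2.5–3 h, 10.3 to 11.9 kb inside Eip75B, had Pol II in both lists of both larval genotypes.

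The other genes of the ecdysone pathway, 38 in a list by role, mostly had lower coverage in the mutant embryos, as most genes did. For Pol II and pSer5, 29 of 35 tested were lower, 2 higher and 4 did not pass (79.4% lower and 4.01% higher for all genes). For Zelda and GAF, 30 of 37 were lower, 2 higher and 5 did not pass (73.3% lower and 1.56% higher for all genes). Among the genes of hormone synthesis 6 of 8 were lower for Pol II and pSer5, such as sad (15.3% in mutant, 36.7% in WT) and dib (0.394% and 21.5%), cytochrome P450 genes. The 2 that were higher, for both pairs of antibodies, were also synthesis genes, nvd and spok, named here after their values were seen. For Pol II and pSer5, nvd had 12% in mutant and 0 in WT lists and spok 8.85% and 0 (both adjusted p = 0.00226, two-sided exact permutation test). They lie at 24.3 Mb on 3L and 3.32 Mb on 3R. The importer gene Oatp74D (5.67% in mutant, 19.6% in WT), the membrane receptor gene DopEcR (0.407% and 12.7%) and the breakdown gene Cyp18a1 (0 and 7.82%) were lower. Of 4 receptor cofactor genes, trr (1.17% and 39.5%), rig (1.42% and 17.9%) and Smr (0.681% and 5.15%) were lower for Pol II and pSer5, and tai did not pass. Of 9 other inducible or nuclear receptor genes 7 were lower, Hr39 by the most (2.36% in mutant, 32.1% in WT). Late and effector genes were lower in 10 of 11 tested, such as MsrA (2.21% and 74.3%) and ImpL2 (5.25% and 32.9%).

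The pattern of br over the 20 group means of coverage was unlike that of the other 7 genes, with Spearman's rho between -0.26 and 0.02. The gene outside the window with the pattern most like each member's was rdx for EcR (rho 0.98), Tao for usp (1.00), RanBPM for Eip74EF (0.93), CHES-1-like for Hr3 (0.92), Moe for Hr4 (0.96), l(1)G0469 for ftz-f1 (0.94) and uex for br (0.88). For Eip75B it was CG12912 (0.88), which lies inside the Hr3 window. These are descriptions over 20 means that share lists and antibodies.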

How the data were processed

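Peaks were read from lists the authors deposited, 1 per sample, which give only the start and end of each peak in base pairs on build dm6, with no score, height or p. MACS2 2.2.7.1, a peak caller, is listed in the submitters' processing notes, which also list Bowtie2 2.2.5, deepTools 3.5.1, SAMtools 1.18 and Trimmomatic 0.39; thresholds and control libraries are not given in the sources used here. Genes came from the Release 6 table of RefSeq, which has no strand or exons.

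For each protein-coding gene the percent of the window (body with 5 kb either side) covered by peaks was computed with Python 3.11.15, numpy 2.4.6 and pandas 2.3.3. The genotype test was an exact two-sided permutation of labels within antibody and stage, separately for Zelda with GAF and for Pol II with pSer5: 4 strata of 2 lists against 2, 1296 labellings, smallest p 0.00154, or 0.0556 if same-numbered lists of the 2 antibodies came from the same chromatin, which the labels do not say. P-values were adjusted by Benjamini-Hochberg over all genes with a peak in at least 2 of the 16 lists, with a threshold of 0.05. The test was tested on simulated data that had no zeros and less spread between replicates than some real lists. It recovered 100 of 100 genes lowered 4-fold in the mutant at an unadjusted p under 0.05. This held in both pairs of antibodies (11007 and 11417 genes simulated), but does not show recovery at the adjusted threshold. Stage, IntS11 and larval comparisons have no test, only the values of every list and whether lists overlap. A region joins peaks that both lists of a group share by at least 1 bp; it is lost or kept when neither or both lists of the compared group have a peak there. No sequence was used here. Tried alternatives were other flanks, log2 of covered length, minimum and joined peaks, equal numbers of peaks, all genes, leaving out each list and a replicate block. The named genes were all 8, up to 4 called genes per pathway role, largest difference first (nvd and spok were added after their values were seen), and the gene most like each by Spearman's rho. The genes and lists were chosen with earlier results of these data known.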

Additional observations from a re-analysis of the deposited data

How the results depend on the processing

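The direction and call of Pol II and pSer5 coverage at EcR, usp and br, and of Zelda and GAF coverage at EcR and Hr4, were the same under every alternative run. With gene bodies alone, the Pol II and pSer5 difference at ftz-f1 turned to 0.22 points (adjusted exact p = 0.577), since its coverage lies in the flanks, and those of Eip74EF and Hr4 no longer passed; with 10 kb flanks Zelda and GAF passed at usp (-3.82 points) and ftz-f1 (-3.16). On log2 of covered length they passed at Eip74EF, Hr3 and ftz-f1 (adjusted exact p = 0.0188, 0.00786 and 0.0267). Genes called lower for Zelda and GAF numbered 8069, against 4162 in bodies alone and 3184 with equal numbers of longest peaks. Genes called higher for Zelda and GAF numbered 172, against 87 in bodies alone, 96 with 1 kb flanks and 103 with peaks of at least 500 bp. For Pol II and pSer5 the 458 higher ones became 271, 272 and 277 in that order. Leaving out each list in turn gave 7880 to 8185 lower and 149 to 193 higher genes for Zelda and GAF, and 8928 to 9100 and 423 to 486 for Pol II and pSer5. Same-numbered mutant and WT lists did not deviate together (correlations -0.0775 to 0.104), which cannot show whether they were prepared together. A replicate block, whose smallest p is 0.00781, gave 7346 lower and 134 higher for Zelda and GAF and 8707 and 367 for Pol II and pSer5, and changed no call at the 8 genes. Without the Pol II comparison of 2.5–3 h, an alternative chosen after seeing the data, 8414 were lower and 372 higher. Depth was unknown in all lists.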
